A study of Mus musculus with 12 samples.

Results

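Polyamine metabolism was followed through 8 genes chosen by symbol from the 21671 genes of a 12-library RNA-seq table: Odc1, Amd1, Srm and Sms, which encode the enzymes of synthesis, Sat1, which encodes an enzyme of breakdown, and Azin1, Oaz1 and Oaz2, which encode the regulators of ornithine decarboxylase. All 8 were present in the table, and all 8 passed the filter of a mean of at least 0.5 RPKM that left 11079 genes for testing. RPKM is the number of reads on a gene scaled to its length and to the total of the library.

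The cells were 3T9MycER fibroblasts, an immortalised line from mouse embryos that carries MycER, a fusion of Myc with the ligand-binding domain of the estrogen receptor that becomes active once 4-hydroxytamoxifen (OHT) is given. All 6 groups carried MycER, so the groups without OHT hold the inactive fusion. The groups were DMSO (solvent), DMSO + OHT, VP (verteporfin at 20 µM, which keeps YAP from acting with TEAD), VP + OHT, Y27 (Y27632 at 50 µM, an inhibitor of the ROCK kinases) and Y27 + OHT, with 2 libraries in each and 8 h of treatment with either inhibitor. The study asked how Myc-driven transcription depends on YAP and on the tension of the actin cytoskeleton. The sources describe the culture state in different ways, confluent in one place and subconfluent in another, so it is not settled here, and nothing says that the 2 libraries of a group came from separate cultures.

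Polyamines are small, positively charged molecules that bind nucleic acids and are needed for growth. Ornithine decarboxylase (Odc1) turns ornithine into putrescine, S-adenosylmethionine decarboxylase (Amd1) supplies the aminopropyl group, and spermidine synthase (Srm) and spermine synthase (Sms) add it in turn. Spermidine/spermine acetyltransferase (Sat1) marks the products for export or back-conversion. Antizymes (Oaz1, Oaz2) bind ornithine decarboxylase and send it to the proteasome, and the antizyme inhibitor (Azin1), a relative of ornithine decarboxylase without its activity, binds the antizymes in its place. Antizyme protein depends on a ribosomal frameshift that polyamines favour, and Sat1 and Amd1 are also controlled in translation, so RNA levels describe only 1 layer of the pathway. Odc1 is a classical Myc target in mouse, with Myc-binding E-boxes known in its first intron.

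The libraries held 21857777 to 30856488 reads in total, with 30.6% to 36.1% assigned to genes, and replicates correlated at 0.9918 to 0.9954 across the tested genes. The Myc target Ncl had a mean of 9.90 RPKM in DMSO and 19.5 RPKM in DMSO + OHT. Of 10 fibroblast markers 8 were tested, with a summed level of 118 to 253 RPKM that was lowest under VP, where the mean of Col1a1 was 16.4 RPKM against 43.7 in DMSO. Thy1 was near 0 in every group (means of 0 to 0.0204 RPKM) and the highest group mean of Dcn was 0.606 RPKM. No marker of epithelial (5 listed) or endothelial cells (4 listed) reached the filter, and their summed levels stayed at or below 0.126 and 0.201 RPKM. Of 6 macrophage and leukocyte markers Cd68 and Cd14 reached it, and Cd14 had a mean of 6.54 RPKM in VP and 8.58 in VP + OHT against 1.54 in DMSO, while Ptprc and Emr1 were near 0 (means of at most 0.0198 RPKM). The part of these marker shifts in the values below was not tested, and in bulk RNA fewer cells of a type and less RNA per cell cannot be told apart.

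The bases just before the transcription start are shown for Sms, the only matched member with the Myc-Max E-box, and for Amd1, Odc1 and Sat1, which differ in their response to OHT below and have no E-box there. In RefSeq's promoter table (GRCm38.p6) 6 of the 8 members were matched, and Srm and Azin1 were not. The windows hold 250 bases before the start, read 5′ to 3′ on the strand of the gene, and capitals mark CACGTG, a palindrome and therefore the same on both strands. They lie at chrX:157492288-157492537 (minus strand) for the outer start of Sms, chr10:40302189-40302438 (minus) for Amd1, chr12:17544623-17544872 (plus) for Odc1 and chrX:155216450-155216699 (minus) for Sat1. RefSeq's gene record for Odc1 begins at 17544808, so the end of the Odc1 window lies inside the annotated gene.
Sms: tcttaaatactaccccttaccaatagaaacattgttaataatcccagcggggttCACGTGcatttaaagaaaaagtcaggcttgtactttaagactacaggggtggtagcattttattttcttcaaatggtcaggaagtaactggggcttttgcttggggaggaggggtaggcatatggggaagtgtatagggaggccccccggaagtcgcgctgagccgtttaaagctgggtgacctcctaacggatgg
Amd1: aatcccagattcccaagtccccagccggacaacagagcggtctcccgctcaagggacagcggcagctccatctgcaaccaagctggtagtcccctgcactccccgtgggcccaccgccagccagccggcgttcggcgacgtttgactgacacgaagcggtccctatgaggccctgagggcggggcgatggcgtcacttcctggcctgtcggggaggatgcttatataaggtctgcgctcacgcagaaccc
Odc1: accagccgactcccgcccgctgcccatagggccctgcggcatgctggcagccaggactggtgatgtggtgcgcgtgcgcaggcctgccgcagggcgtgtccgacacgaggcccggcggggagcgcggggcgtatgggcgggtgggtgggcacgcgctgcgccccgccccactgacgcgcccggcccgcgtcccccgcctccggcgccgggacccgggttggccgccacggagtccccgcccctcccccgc
Sat1: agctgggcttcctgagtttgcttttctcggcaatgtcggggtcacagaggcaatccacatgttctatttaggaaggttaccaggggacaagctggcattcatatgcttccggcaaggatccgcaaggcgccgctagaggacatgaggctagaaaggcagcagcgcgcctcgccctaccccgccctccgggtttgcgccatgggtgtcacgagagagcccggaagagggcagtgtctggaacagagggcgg
The E-box of Sms begins at position -196, counted from the start site, and the second start site of Sms in the table had none. CACGTG occurred in 6.02% of all 32851 promoter windows of this length, and GGAATG, the letters bound by TEAD, searched on both strands, in 12.6%. GGAATG was in none of the windows of the 6 matched members. A match is a description of letters and not evidence of binding, and introns were not searched.

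The level of Odc1, the first enzyme of the pathway, varied least among the 4 synthesis genes, with the highest group mean 1.52-fold above the lowest. Odc1 had 29.3 and 25.5 RPKM with solvent alone (34.0 and 28.1 with OHT), 32.9 and 33.7 with VP alone (33.8 and 33.8 with OHT) and 22.3 and 22.3 with Y27 alone (25.6 and 26.7 with OHT). The Y27 libraries were the lowest of all 12, the VP and VP + OHT libraries lay close together, and the DMSO and DMSO + OHT libraries overlapped. With OHT in DMSO the log2 change was 0.17 (SE 0.09, limma on log2(RPKM + 1), adjusted p = 0.17) with a 95% interval of -0.05 to 0.39, which covers no change. This value moved both ways with single libraries: the log2 change was 0.30 without DMSO + OHT replicate 2 and 0.04 without DMSO + OHT replicate 1. With median-ratio scaling it was 0.06 (adjusted p = 0.58). The changes with OHT were 0.02 in VP (adjusted p = 0.92) and 0.22 in Y27 (adjusted p = 0.076), and the latter was called after quantile normalization (0.0043) and by limma voom on restored reads (0.043). Odc1 rose under VP without OHT by 0.28 (SE 0.09, adjusted p = 0.015) and fell under Y27 without OHT by 0.28 (SE 0.09, adjusted p = 0.018). The VP call was lost without DMSO replicate 2 (adjusted p = 0.15) or VP replicate 2 (0.071), and the Y27 call without DMSO replicate 1 (0.16), Y27 replicate 1 (0.072) or Y27 replicate 2 (0.071). With OHT present the change was 0.12 under VP (adjusted p = 0.24) and -0.23 under Y27 (adjusted p = 0.053), and each passed the threshold without 1 library, the first without DMSO + OHT replicate 1 (0.018) and the second without DMSO + OHT replicate 2 (0.0050), and both also after quantile normalization (0.0019 and 0.0011). Of these DMSO + OHT libraries, replicate 1 lay above replicate 2 in RPKM in 6 of the 8 members. The library totals were 23796550 reads in replicate 1 and 28878041 in replicate 2. The reads themselves were 2061 and 2064 for Odc1, 1227 and 1200 for Srm and 1233 and 1242 for Oaz1. For these genes the gap in RPKM thus comes from the totals. Sms (812 and 1011 reads) and Sat1 (330 and 439) had the higher RPKM in replicate 2. Why the reads of some genes did not follow the totals was not tested. Of the 50-base windows of the Odc1 transcript 42.2% also occur in other transcripts, spread over 15 genes, so part of its level is uncertain.

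Amd1, whose enzyme makes the aminopropyl donor, rose with OHT in DMSO and in Y27 but had a smaller change in VP. Its levels were 18.6 and 17.1 RPKM with solvent alone (27.6 and 25.9 with OHT), 17.6 and 18.7 with VP alone (20.1 and 19.6 with OHT) and 15.1 and 16.1 with Y27 alone (25.5 and 26.2 with OHT). The 4 libraries with OHT and without VP were the highest of the 12, and the VP and DMSO libraries overlapped. The log2 change with OHT was 0.56 in DMSO (SE 0.07, adjusted p = 5.2e-05, 1.5-fold in RPKM), 0.70 in Y27 (SE 0.07, adjusted p = 5.6e-06, 1.66-fold) and 0.12 in VP (adjusted p = 0.30, 95% interval -0.04 to 0.28). The difference between the responses in VP and in DMSO was -0.44 (SE 0.09, adjusted p = 0.024), the only member called in that test. That call was lost without DMSO replicate 2 (adjusted p = 0.085), DMSO + OHT replicate 1 (0.069), VP replicate 2 (0.11) or either VP + OHT library (0.091 without replicate 1 and 0.10 without replicate 2), and with no filter on low values (0.055). With OHT, Amd1 was lower in VP than in DMSO by a log2 change of -0.41 (SE 0.07, adjusted p = 0.00012). Under Y27 without OHT it fell by 0.19 (adjusted p = 0.033), a call lost without DMSO replicate 1 (0.19) or Y27 replicate 1 (0.20). Of the 50-base windows of the Amd1 transcript 87.6% also occur in transcripts of other genes, mostly Amd2. The sources do not state how reads with several matches were counted, so the level of Amd1 is uncertain by an unknown amount.

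Srm, encoding spermidine synthase, had 28.6 and 24.5 RPKM with solvent alone (38.8 and 31.3 with OHT), 31.6 and 34.4 with VP alone (36.0 and 39.2 with OHT) and 17.3 and 18.3 with Y27 alone (31.8 and 32.3 with OHT). Its lowest libraries were those of Y27, while Y27 + OHT reached the range of DMSO + OHT. Srm rose with OHT by 0.39 in DMSO (SE 0.10, adjusted p = 0.011, 1.32-fold) and by 0.82 in Y27 (SE 0.10, adjusted p = 5.8e-05, 1.81-fold), against 0.18 in VP (adjusted p = 0.30). The DMSO call was lost without DMSO replicate 2 (adjusted p = 0.12) or DMSO + OHT replicate 1 (0.11). The difference between the Y27 and DMSO responses was 0.43 (SE 0.14, adjusted p = 0.37, unadjusted p = 0.011), and it passed the threshold only after quantile normalization (adjusted p = 0.030). Under Y27 without OHT Srm fell by 0.55 (SE 0.10, adjusted p = 0.00064), and under VP without OHT it rose by 0.31 (SE 0.10, adjusted p = 0.018). The VP call was lost without DMSO replicate 2 (0.17), without VP replicate 2 (0.12) and with no filter on low values (0.052). With OHT present the change was 0.10 under VP and -0.12 under Y27 (adjusted p = 0.39 for both), and these passed without DMSO + OHT replicate 1 (0.039) and without DMSO + OHT replicate 2 (0.048), respectively.

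Sms, encoding spermine synthase, was the only member that rose with OHT in all 3 settings. It had 5.929 and 5.998 RPKM with solvent alone (10.1 and 10.4 with OHT), 5.82 and 6.01 with VP alone (8.90 and 9.28 with OHT) and 4.13 and 4.71 with Y27 alone (7.85 and 8.45 with OHT). Every library with OHT lay above every library without it. The log2 change with OHT was 0.69 in DMSO (SE 0.07, adjusted p = 1.3e-05, 1.72-fold), 0.55 in VP (SE 0.07, adjusted p = 0.00096, 1.54-fold) and 0.76 in Y27 (SE 0.07, adjusted p = 3.5e-06, 1.84-fold), and these calls held without any single library. The difference between the responses in VP and DMSO was -0.14 (95% interval -0.38 to 0.09, adjusted p = 0.48). Y27 lowered Sms by 0.36 without OHT (adjusted p = 0.0007) and by 0.30 with OHT (adjusted p = 0.0035, and 0.051 after quantile normalization). The VP change was -0.01 without OHT (95% interval -0.18 to 0.16) and -0.16 with OHT (adjusted p = 0.063). Sms-ps shares 28.7% of the 50-base windows of Sms, so an unknown part of the Sms level is uncertain.

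**Figure D1:**
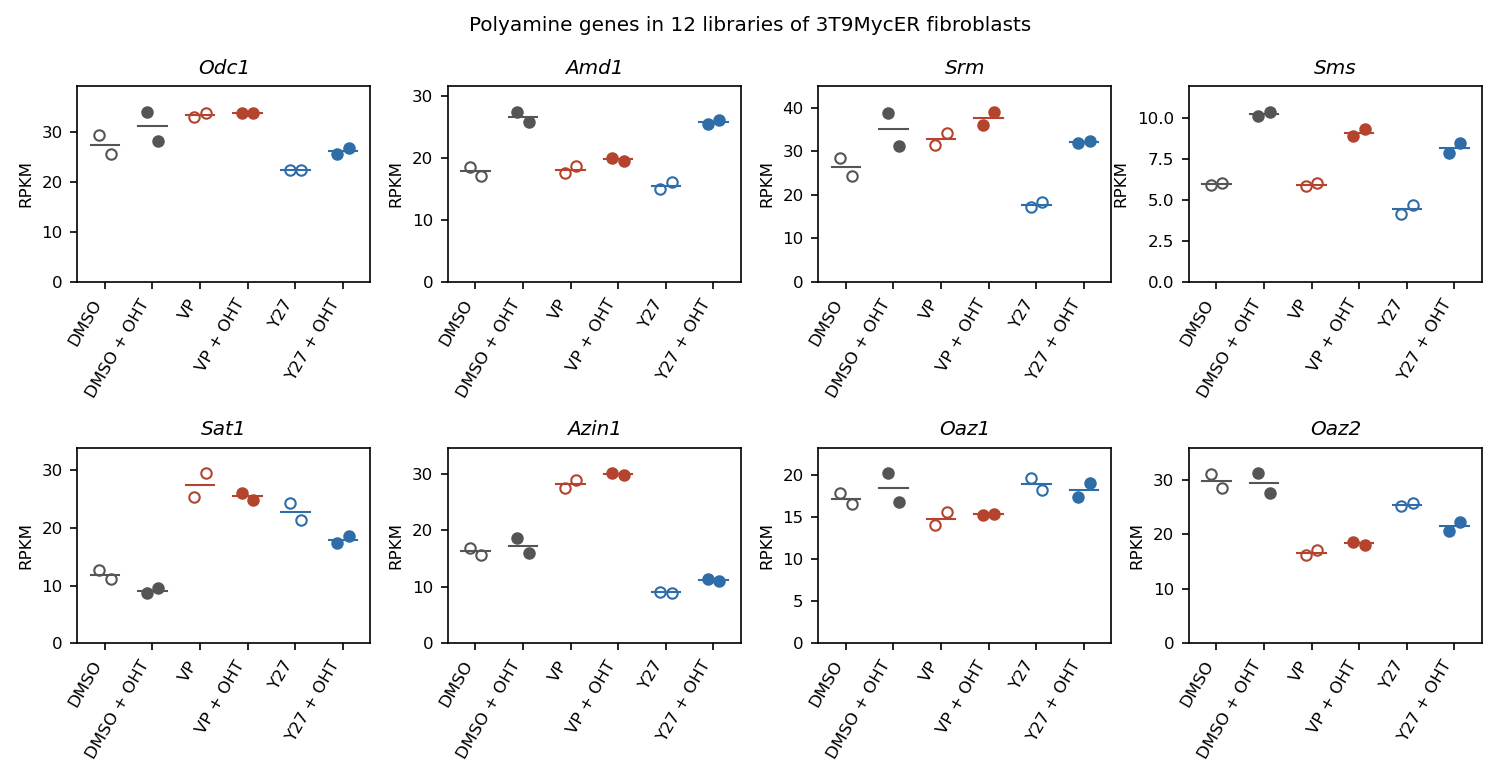
RPKM of the 8 genes in each of the 12 libraries (points; open without OHT, filled with OHT; grey DMSO, red VP, blue Y27), with the mean of the 2 libraries of a group as a line and every axis starting at 0. The Sms points with OHT lie at 7.85 RPKM or above and those without OHT at 6.01 or below, Sat1 is lowest in both DMSO groups, and Azin1 is highest in both VP groups and lowest in both Y27 groups.

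Sat1, encoding the enzyme that acetylates spermidine and spermine, rose under both inhibitors. Sat1 had 12.6 and 11.1 RPKM with solvent alone (8.69 and 9.53 with OHT), 25.3 and 29.5 with VP alone (26.1 and 24.9 with OHT) and 24.4 and 21.3 with Y27 alone (17.4 and 18.5 with OHT). All 8 libraries with an inhibitor lay above all 4 without. VP raised Sat1 by a log2 change of 1.14 without OHT (SE 0.09, adjusted p = 1.3e-07, 2.31-fold) and 1.39 with OHT (SE 0.09, adjusted p = 2.2e-08, 2.80-fold). Y27 raised it by 0.89 without OHT (SE 0.09, adjusted p = 5.7e-06, 1.92-fold) and 0.91 with OHT (SE 0.09, adjusted p = 7.1e-06, 1.97-fold), and 99.1% of the genes tested had a smaller or more negative change under Y27 without OHT. These 4 calls held without any single library, and the VP and Y27 comparisons share the DMSO libraries. Sat1 fell with OHT by 0.35 in DMSO (SE 0.09, adjusted p = 0.0099) and by 0.33 in Y27 (SE 0.09, adjusted p = 0.014), and its change in VP was -0.10 (adjusted p = 0.55, 95% interval -0.32 to 0.12). The call in DMSO was lost without DMSO replicate 1 (0.083) or DMSO + OHT replicate 1 (0.075), and the call in Y27 without Y27 replicate 1 (0.12) or Y27 + OHT replicate 1 (0.093).

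Azin1, encoding the antizyme inhibitor, moved in opposite directions under the inhibitors and had the widest range of the 8, 3.31-fold between group means. It had 17.0 and 15.6 RPKM with solvent alone (18.6 and 16.0 with OHT), 27.4 and 28.9 with VP alone (30.1 and 29.7 with OHT) and 9.071 and 9.002 with Y27 alone (11.46 and 11.002 with OHT). The VP and VP + OHT libraries were the highest, the Y27 and Y27 + OHT libraries the lowest, and the DMSO groups lay between them and overlapped each other. Azin1 rose under VP by 0.76 without OHT (SE 0.07, adjusted p = 9.9e-07, 1.73-fold) and by 0.76 with OHT (adjusted p = 1.1e-06, 1.73-fold). It fell under Y27 by 0.78 without OHT (SE 0.07, adjusted p = 3.1e-06, to 0.555 of the DMSO level) and by 0.58 with OHT (adjusted p = 4.7e-05, to 0.649). These calls held without any single library. With OHT the change was 0.08 in DMSO (adjusted p = 0.43) and 0.08 in VP (adjusted p = 0.53), and Azin1 rose in Y27 by 0.28 (adjusted p = 0.010), a call lost without Y27 replicate 2 (0.052) or Y27 + OHT replicate 1 (0.070). No 50-base window of its transcript occurs in another gene.

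The antizyme genes differed from each other. Oaz1 had 17.8 and 16.6 RPKM with solvent alone (20.3 and 16.8 with OHT), 14.1 and 15.6 with VP alone (15.3 and 15.4 with OHT) and 19.6 and 18.3 with Y27 alone (17.5 and 19.1 with OHT). Its group means spanned 1.28-fold, the smallest range of the 8, and most neighbouring groups overlapped. The reads on Oaz1 ran from 1041 to 1242 over the 12 libraries, while library totals ran from 21857777 to 30856488. They were 1233 and 1242 in DMSO + OHT and 1124 and 1137 in VP + OHT. The part of the totals in the RPKM differences of Oaz1 was not tested. Oaz1 fell only under VP with OHT (log2 change -0.25, SE 0.09, adjusted p = 0.022), against -0.20 under VP without OHT (adjusted p = 0.052). That call was lost without DMSO + OHT replicate 1 (0.24) or either VP + OHT library (0.083 without replicate 1 and 0.071 without replicate 2), and the VP change without OHT passed without VP replicate 2 (0.041). The length behind its RPKM, 2558 bases, was above the annotated 1044 bases, so its level cannot be set beside the other genes, and Oaz1-ps shares 53.9% of its 50-base windows.

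Oaz2 had 31.0 and 28.5 RPKM with solvent alone (31.2 and 27.6 with OHT), 16.2 and 17.0 with VP alone (18.6 and 18.0 with OHT) and 25.2 and 25.7 with Y27 alone (20.6 and 22.2 with OHT). The 4 VP libraries, with and without OHT, were the lowest, and all 8 libraries with an inhibitor lay below the 4 without. Oaz2 fell under VP by 0.81 without OHT (SE 0.07, adjusted p = 6.1e-07, to 0.557 of the DMSO level) and by 0.65 with OHT (SE 0.07, adjusted p = 5.3e-06, to 0.623). Under Y27 it fell by 0.22 without OHT (adjusted p = 0.026) and by 0.44 with OHT (adjusted p = 0.00045). Of these, the call for Y27 without OHT was lost without DMSO replicate 1 (0.16), Y27 replicate 1 (0.11) or Y27 replicate 2 (0.073). With OHT the change was -0.02 in DMSO (adjusted p = 0.87) and 0.13 in VP (adjusted p = 0.31), and in Y27 Oaz2 fell by 0.24 (adjusted p = 0.028), a call lost without Y27 replicate 1 (0.079), Y27 replicate 2 (0.12) or Y27 + OHT replicate 1 (0.18).

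Counted over the 8 genes, OHT in DMSO raised 3 (Amd1, Srm, Sms) and lowered 1 (Sat1), where 24.1% of all tested genes rose and 10.0% fell. In VP, OHT raised 1 (Sms) and lowered none, with a background of 5.33% and 0.487%, and at an unadjusted p under 0.05 Sms was also the only one. In Y27 it raised 4 (Amd1, Srm, Sms, Azin1) and lowered 2 (Sat1, Oaz2), with a background of 19.9% and 11.9%. VP without OHT raised 4 (Sat1, Azin1, Srm, Odc1) and lowered 1 (Oaz2), where 27% of all genes rose and 40.8% fell. Y27 without OHT raised 1 (Sat1) and lowered 6 (Azin1, Srm, Sms, Odc1, Oaz2, Amd1), where 17.3% rose and 33.5% fell, and the median log2 change of the members was -0.25 against -0.07 over all genes. With OHT present, VP raised 2 (Sat1, Azin1) and lowered 3 (Amd1, Oaz2, Oaz1) against 25.5% and 39.1%, and Y27 raised 1 (Sat1) and lowered 3 (Azin1, Oaz2, Sms) against 10.3% and 33.0%. The difference between OHT responses was called for 1 member in VP (Amd1, background 4.02%) and for none in Y27 (background 0.171%), where 1 member, Srm, had an unadjusted p under 0.05. The count for OHT in DMSO was 2 without DMSO + OHT replicate 1, that for OHT in Y27 was 3 without Y27 + OHT replicate 1, that for VP was 3 without DMSO replicate 2, and that for Y27 was 4 without DMSO replicate 1 or Y27 replicate 1. Other scalings moved the split of higher against lower calls. Median-ratio scaling gave 2 higher and 4 lower members for Y27 without OHT and 4 higher and 2 lower for VP with OHT. Quantile normalization gave 3 and 2 for OHT in DMSO (all genes, 19.9% and 21.3%). For VP without OHT it gave 4 and 2 (all genes, 37.4% and 35.8%). Over all genes median-ratio scaling gave 17.0% higher and 20.0% lower for OHT in DMSO, 2.53% and 1.14% for OHT in VP, 18.9% and 20.2% for OHT in Y27, 34.9% and 36.1% for VP without OHT, 26.2% and 30.1% for Y27 without OHT, 33.9% and 33.3% for VP with OHT, and 21.6% and 23.6% for Y27 with OHT. Comparisons with DMSO share its libraries and are not independent of each other.

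**Figure D2:**
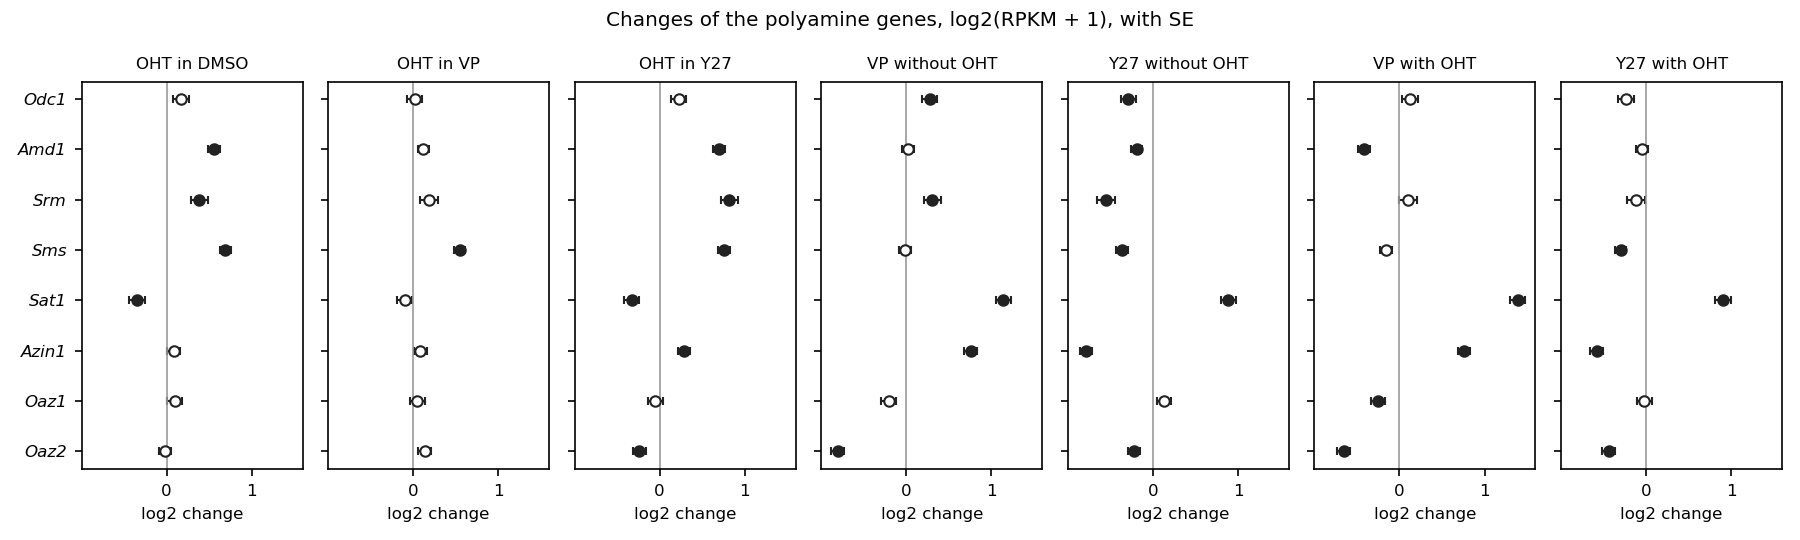
Log2 change of each gene with its standard error in 7 comparisons, on the log2(RPKM + 1) scale, from 1 limma fit over all 12 libraries (filled points, adjusted p under 0.05; open points, not called). Sat1 lies at 0.89 to 1.39 in the 4 inhibitor panels, and Azin1 lies at 0.76 in both VP panels and at -0.78 and -0.58 in the Y27 panels.

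Ratios taken within a library set the members against each other and do not depend on library scaling. Azin1 over the sum of Oaz1 and Oaz2 was 0.347 and 0.346 in DMSO and 0.362 and 0.360 in DMSO + OHT. It was 0.887 to 0.907 in the 4 VP and VP + OHT libraries, and 0.202 and 0.205 with Y27 alone (0.301 and 0.266 with OHT). The antizyme inhibitor transcript thus stood above its DMSO proportion in every VP library and below it in every Y27 library. Sat1 over Odc1 was 0.431 and 0.436 in DMSO, 0.256 and 0.340 in DMSO + OHT, 0.737 to 0.874 with VP, and 1.09 and 0.956 with Y27 alone (0.678 and 0.693 with OHT). Srm over Sat1, a synthesis gene over the breakdown gene, was 2.26 and 2.20 with solvent alone (4.47 and 3.28 with OHT), 1.25 and 1.16 with VP alone (1.38 and 1.57 with OHT) and 0.709 and 0.858 with Y27 alone (1.83 and 1.75 with OHT). In all 3 settings the OHT libraries had the higher ratio of Srm to Sat1, and without OHT both inhibitors had the lower one. These ratios were not tested, and the length behind Oaz1 sets its weight in the sum with Oaz2.

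**Figure D3:**
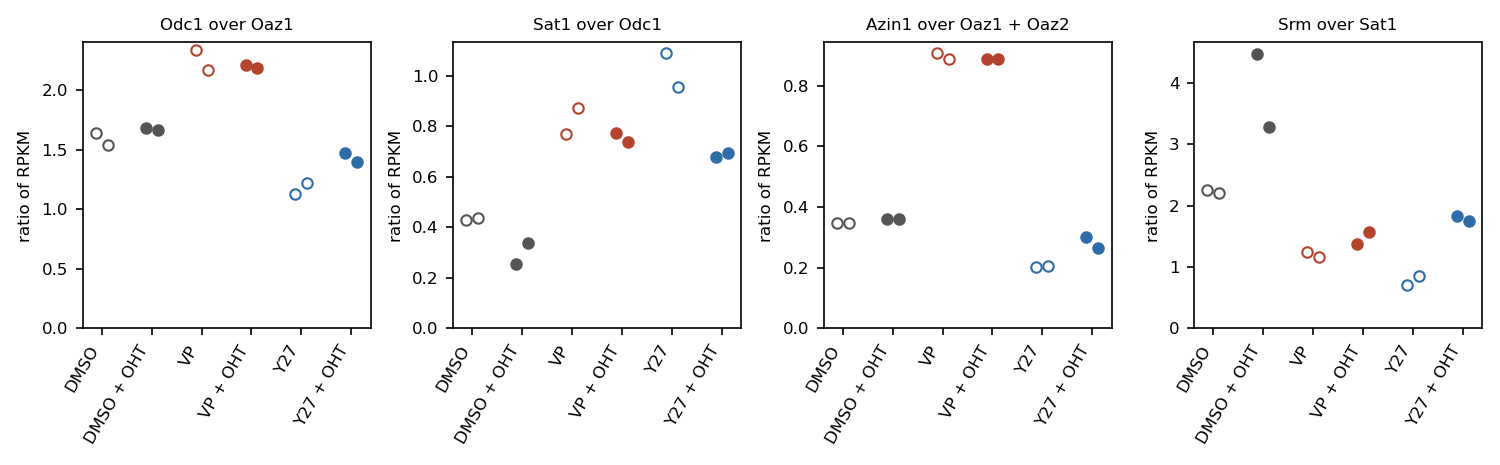
Ratios of RPKM between members in each of the 12 libraries (points; open without OHT, filled with OHT; grey DMSO, red VP, blue Y27), with axes from 0. Azin1 over both antizymes lies at 0.887 or above with VP and at 0.301 or below with Y27, and Srm over Sat1 is highest in DMSO + OHT at 3.28 and 4.47.

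Likeness of pattern over the 12 libraries is given as Pearson's r of log2(RPKM + 1), as a description, since libraries of a group share their treatment. Odc1 ran with Azin1 at 0.93 and with Srm at 0.88, Amd1 with Sms at 0.86 and Srm with Sms at 0.83. Sat1 and Oaz2 ran opposite to each other at -0.83, and Azin1 and Oaz1 at -0.76. Outside the members, Azin1 was most like Gpt2 (0.9987), Rras2 and Psph, which encodes the last enzyme of serine synthesis. Srm was most like Dkc1 (0.9832), the pseudouridine synthase dyskerin, Slc25a5 and the purine enzyme gene Atic, and Amd1 was most like Polr2f (0.9936), Erlin1 and Knop1. Sat1 was most like F3 (0.9802), the tissue factor gene, Amn1 and Parp3, and Odc1 was most like Spg21 (0.9792) and Nes. Sms was most like Ica1 (0.9861), Ss18 and Nup107, Oaz1 most like Spcs1 (0.9910), Nedd4 and Slc25a4, and Oaz2 most like Pias2 (0.9859), Calml4 and Cald1.

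A list of 29 other genes of polyamine metabolism, of which 28 were in the table and 22 were tested, gave the surroundings of the 8. With OHT in DMSO 10 of 22 rose and 1 fell (median log2 change 0.17 against 0.06 over all genes), where 24.1% of all tested genes rose and 10.0% fell. The split was 7 higher and 5 lower with median-ratio scaling (all genes, 17% and 20%) and 9 and 5 with quantile normalization (all genes, 19.9% and 21.3%). Salvage of methylthioadenosine, the by-product of spermidine and spermine synthesis, rose in 4 of its 5 tested genes: Adi1 (log2 change 0.67, adjusted p = 4.9e-05), Mri1 (0.60, 0.0003), Enoph1 (0.43, 0.00034) and Mtap (0.42, 0.00081). Apip, the other gene of that route, had a change of -0.25 (adjusted p = 0.066) and was called lower with a replicate block (0.049), with median-ratio scaling (0.014), after quantile normalization (0.0065) and in the fit of the 8 libraries with VP (0.0095). Adi1 went from a mean of 5.97 ± 0.171 RPKM (SD, n = 2 libraries) in DMSO to 10.1 ± 0.114 in DMSO + OHT. The transporters of cationic amino acids such as arginine, Slc7a2 and Slc7a1, rose by 0.65 (adjusted p = 4.4e-05) and 0.62 (adjusted p = 0.00031). In VP, OHT raised 4 of the 22 (Mri1, Adi1, Enoph1, Atp13a2) and lowered none (all genes, 5.33% and 0.487%), a count that was 0 without VP replicate 2 and 1 without any other VP or VP + OHT library, and quantile normalization gave 2 higher and 1 lower. Over all genes quantile normalization gave 3.11% higher and 1.88% lower for OHT in VP. In Y27, OHT raised 10 and lowered 3 of the 22 (all genes, 19.9% and 11.9%).

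Slc7a2 was the only listed gene called for a different OHT response in VP, by -0.68 (SE 0.11, adjusted p = 0.0052), and that call held without any single library. In this test 4 of the listed genes had an unadjusted p under 0.05, and quantile normalization also called Mtap (-0.22, adjusted p = 0.017). Slc7a2 had a mean of 4.27 RPKM in DMSO, 7.29 in DMSO + OHT, 4.57 in VP and 4.43 in VP + OHT. The OHT libraries of VP thus lay within the range of the VP libraries, unlike those of DMSO. For a different response in Y27, the main limma fit called none of the listed genes, 6 of which had an unadjusted p under 0.05. The largest of these differences was that of Slc7a1, at 0.51 (unadjusted p = 0.0022, adjusted p = 0.24). By limma voom on restored reads it was called (0.59, adjusted p = 0.034). Slc7a2 had -0.35 in the main fit (unadjusted p = 0.0071, adjusted p = 0.32).

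VP without OHT raised 6 of the 22 and lowered 9 (median -0.06 against -0.08 over all genes), shares near the 27% and 40.8% of all genes, and the split was 8 higher and 6 lower with median-ratio scaling. Slc18b1, a vesicular polyamine transporter, fell by 1.77 (SE 0.07, adjusted p = 3.8e-10), from 6.61 ± 0.222 to 1.24 ± 0.0839 RPKM. Sat2, named for its likeness to Sat1, fell by 1.18 (adjusted p = 1.1e-07), from 3.73 ± 0.462 to 1.08 ± 0.0870 RPKM, the direction opposite to that of Sat1. Mat2b, the regulatory subunit of methionine adenosyltransferase, fell by 0.87 (adjusted p = 7.9e-08). Smox, encoding spermine oxidase, rose by 0.82 (SE 0.09, adjusted p = 2.6e-06), from 4.44 ± 0.650 to 8.60 ± 0.340 RPKM.

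Y27 without OHT raised 1 of the 22 (Atp13a3, a polyamine transporter, 0.26, adjusted p = 0.0070) and lowered 11 (median -0.22 against -0.07), where 17.3% of all genes rose and 33.5% fell, and 4 were higher and 11 lower with median-ratio scaling. The Atp13a3 call was lost without DMSO replicate 2, where its log2 change was 0.20. Sat2 fell by 0.98 (adjusted p = 2.9e-06), Slc7a1 by 0.89 (adjusted p = 7.9e-06), Enoph1 by 0.79 (adjusted p = 1.2e-06) and Slc18b1 by 0.76 (adjusted p = 3.4e-06). Sat2 and Slc18b1 thus fell under both inhibitors while Sat1 rose under both. Smox, which rose under VP, fell under Y27 by 0.60 (adjusted p = 0.00011), to 2.57 ± 0.116 RPKM. Mat2a, which encodes the catalytic subunit of methionine adenosyltransferase, fell under Y27 by 0.68 (adjusted p = 3e-05) and had a change of 0.15 under VP (adjusted p = 0.13), and Mat2b had a change of 0.12 under Y27 (adjusted p = 0.15). With OHT present VP raised 4 and lowered 9 (all genes, 25.5% and 39.1%), and Y27 raised none and lowered 12 (all genes, 10.3% and 33.0%), or 1 higher and 8 lower with median-ratio scaling.

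**Figure D4:**
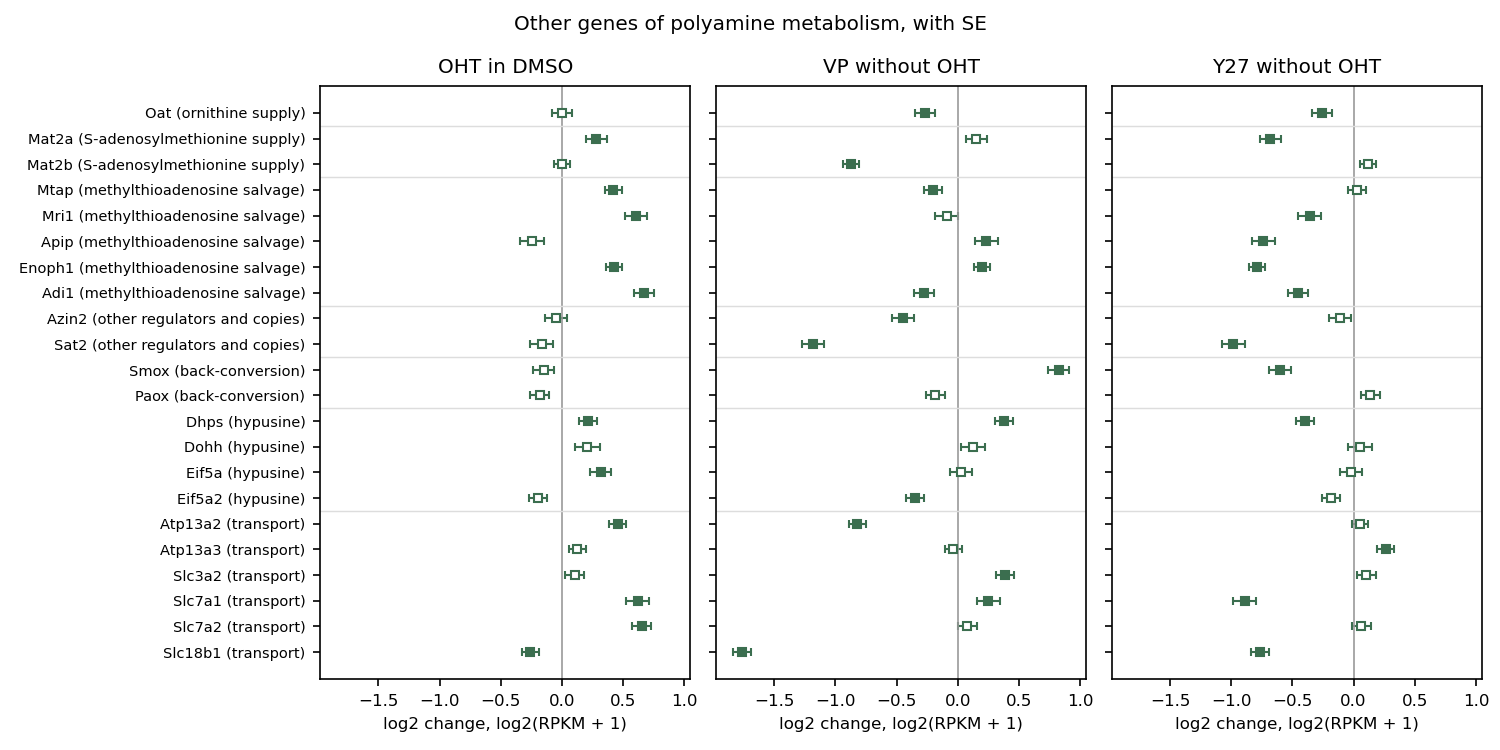
Log2 change with its standard error of the 22 tested genes around the pathway, grouped by role, for OHT in DMSO, VP without OHT and Y27 without OHT (filled squares, adjusted p under 0.05; open squares, not called). Adi1 has the highest value in the OHT panel at 0.67, Slc18b1 the lowest in the VP panel at -1.77 and Sat2 the lowest in the Y27 panel at -0.98.

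The reads behind each member ran from 305 for Sms to 4483 for Azin1 in a single library. The highest reads per base were 1.13 for Srm, 1.02 for Odc1 and 0.865 for Azin1. These values use the restored lengths, which exceed the annotated ones for Oaz1 (2558 against 1044 bases), Sat1 (1595 against 1162) and Odc1 (2547 against 2208). On annotated lengths the reads per base of these genes would be higher. Among 17123 genes of at least 1000 bases, 99.94% stayed at or below 1.8 reads per base. A limit on reads per base in these values is thus possible, and its part in the levels and changes of the members was not tested.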

How the data were processed

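Total RNA without poly(A) selection was sequenced from 12 libraries, 2 in each of 6 groups taken from the labels. Per the submitters' processing notes and methods, the authors aligned reads with TopHat2 2.0.8 to mm9, used SAMtools, assigned them to genes with featureCounts 1.4.5-p1, and deposited RPKM values. The sources used here do not state whether reads were stranded, paired or stripped of duplicates. Deposited tables of the authors' own comparisons (log2 fold changes and p-values from DESeq2, version not given in the sources used here) were not used.

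Values of 1 or more had lost their decimal sign (46.4% of 260052 values). The sign was put back without the authors' fold changes: an RPKM is whole reads over gene length and library total, the totals came from intact low values, and the place followed from whole reads, the annotated length (GENCODE transcripts matched to RefSeq) and closeness between libraries (scales of 0.4 log2 within and 1.5 log2 between treatments). Closeness favours smaller differences only between places 10-fold apart. Of 2009 genes with intact values 2002 (99.7%) were placed alike without them; 27 symbols turned into dates and 43 genes without annotated length were left out, which left 21601. That check covers genes with a value under 1 RPKM in some library, and no member was among them. The places of Srm, Sms and Sat1 were the same without the annotated length, while those of Odc1, Amd1, Azin1, Oaz1 and Oaz2 rested on it. The restored lengths of Odc1, Sms, Sat1 and Oaz1 differ most from the annotated ones.

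Genes averaging at least 0.5 RPKM were compared on the log2(RPKM + 1) scale by limma 3.58.1 (R 4.3.3), with a mean-variance trend, 1 fit over the 12 libraries (6 residual degrees of freedom), two-sided tests and Benjamini-Hochberg adjustment over 11079 genes at 0.05. The added 1 makes changes of low genes smaller; folds named "in RPKM" or set after an adjusted p are ratios of group means. P-values measure only the spread between these libraries, which may be technical. The fit and the restoration were tested on simulated data. The simulated annotated lengths lay near the true ones, so that check did not cover a gap as wide as that of Oaz1. Members, the pathway list, motifs and markers were chosen with earlier results of these data known. Named were all members, the 4 listed genes with the largest called change in each of OHT in DMSO, VP and Y27 without OHT plus genes of a described role, and the 3 genes most correlated with each member, 1 of which is not reported here. Alternatives were another pseudocount (0.1), no filter, other scalings, a fit of 8 libraries, a replicate block, limma voom on restored reads, and each library left out.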

Additional observations from a re-analysis of the deposited data

Results flagged for a closer look

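The OHT response of Amd1 differed between VP and DMSO: the log2 change with OHT was 0.56 in DMSO and 0.12 in VP, a difference of -0.44 (SE 0.09, 95% interval -0.67 to -0.20, adjusted p = 0.024, limma interaction term). Both DMSO + OHT libraries lay above both DMSO libraries by more than the spread within either pair, and both VP + OHT libraries lay above both VP libraries by a smaller step. The call rests on the filter and on single libraries, as given in the account of Amd1, and its unadjusted p was 0.00052. What lies behind the difference was not tested.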

How the results depend on the processing

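For the 8 members, 801 of 864 alternative values kept their call, 42 lost it and 21 gained it, no called value changed direction, and 47 of 72 pairs of member and comparison had the same call under every alternative. Leaving out 1 library at a time, the number of members called ran from 2 to 5 for OHT in DMSO (main count 4), from 3 to 6 for OHT in Y27 (6), from 3 to 5 for VP without OHT (5), from 4 to 7 for Y27 without OHT (7) and from 0 to 1 for the VP and OHT interaction (1). With no filter on low values the VP and OHT interaction called 0 members (Amd1, adjusted p = 0.055), more genes being tested, and after quantile normalization the Y27 and OHT interaction called 1 (Srm); the cause of the latter was not tested. Median-ratio scaling moved the median of all genes by -0.12 log2 for OHT in DMSO, -0.11 for OHT in VP, 0.11 for VP without OHT, 0.12 for VP with OHT and 0.14 for Y27 with OHT, and it ended the calls of Amd1 (0.063) and Oaz2 (0.060) under Y27 without OHT and of Oaz1 under VP with OHT (0.15), and added Amd1 under VP (0.041) and Oaz1 under Y27 (0.048) without OHT, and Odc1 (0.012) and Srm (0.035) under VP with OHT. Over all genes, OHT in VP called 645 genes, 79 to 188 with 1 library left out, and the VP and OHT interaction 445, 128 to 413 with 1 library left out and 193 to 1194 otherwise. The same alternatives, applied to the pathway list after the data were seen, gave 7 to 14 called genes for OHT in DMSO, 12 to 16 for VP and 10 to 16 for Y27 without OHT.

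The labels do not say whether the replicate numbers pair the samples. The differences between replicates correlated at -0.218 to 0.262 (median -0.044) over 15 pairs of groups, so no common shift ran through all groups. With the replicate block, the members called were 4 for OHT in DMSO, 1 for OHT in VP, 6 for OHT in Y27, 5 for VP and 7 for Y27 without OHT, and all 72 member calls were as without it. In the pathway list it changed 1 call, adding Apip as lower for OHT in DMSO (0.049). Depth limits Sms most, with 305 reads in its lowest library.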
